A study of Homo sapiens with 21 samples.

Results

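IL24 and 9 other cytokine genes (IL1A, IL1B, IL6, IL11, LIF, CXCL1, CXCL2, CXCL8 and CCL20) were followed through RNA-seq count tables of a breast cancer cell line made to overexpress splicing factors or MYC. The genes were taken by symbol from the 60668 gene identifiers that both tables list, and all 10 were found and passed the filter on low counts in both tables. IL24 was chosen by its measured change in the cells overexpressing SRSF3 against their control, and the other members are cytokines chosen with results of these libraries in view. For that reason every value of the SRSF3 OE cells against 1xCtrl is given below as a description with no test. The calls made in the other lines describe the genes and are not independent evidence about the list.

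The cells were HCC1806, an established human triple-negative breast cancer line grown as an adherent culture in medium with serum and harvested near confluence. There were 21 libraries in 7 groups of 3. In the first table were the control 3XCTL, the line 3xSR, which by its label combines overexpression of the 3 splicing factors SRSF2, SRSF3 and SRSF7, and MYC-OE, a line with MYC in excess. In the second were a single plasmid control, 1xCtrl, and lines labelled for 1 splicing factor each, SRSF2 OE, SRSF3 OE and SRSF7 OE. The promoters of the overexpression constructs, and whether a line was a clone or a pool, are not given in the sources used here. Nothing in the labels says that replicates were separate cultures, so p-values measure the spread between these samples, which may be technical.

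SRSF2, SRSF3 and SRSF7 are SR proteins, RNA-binding factors that act in splicing and in the export and turnover of mRNA, and MYC is a transcription factor that drives growth. IL24 is a secreted cytokine of the IL-20 subfamily, encoded in a cluster with IL10, IL19 and IL20, and it signals through receptors made of IL20RA or IL22RA1 with IL20RB. IL1A and IL1B are the ligands of the IL-1 receptor, while IL6, IL11 and LIF signal through receptors that contain gp130 (IL6ST). CXCL1, CXCL2 and CXCL8 attract neutrophils through CXCR1 and CXCR2, and CCL20 attracts CCR6-bearing lymphocytes and dendritic cells. Many of these genes are classical targets of NF-kB and AP-1, and their mRNAs are commonly short-lived because of AU-rich elements bound by decay factors such as ZFP36. Squamous and basal epithelial tumour cells are a known source of several of them.

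The bases ahead of the start site are shown for 6 members because these genes share, or do not share, the motifs through which this family is usually discussed. Sequences of the 250 bases before the start were taken from RefSeq (GRCh38.p14) for all members but LIF, so for 9 of 10. They lie at chr4:73869143-73869392 (plus strand) for CXCL1, chr4:74099196-74099445 (minus strand) for CXCL2, chr4:73740319-73740568 (plus strand) for CXCL8, chr2:227813592-227813841 (plus strand) for CCL20, chr7:22726950-22727199 (plus strand) for IL6 and chr1:206897193-206897442 (plus strand) for IL24. Each is written 5′ to 3′ on the strand of the gene, and capitals mark a match to a searched motif on either strand.
CXCL1: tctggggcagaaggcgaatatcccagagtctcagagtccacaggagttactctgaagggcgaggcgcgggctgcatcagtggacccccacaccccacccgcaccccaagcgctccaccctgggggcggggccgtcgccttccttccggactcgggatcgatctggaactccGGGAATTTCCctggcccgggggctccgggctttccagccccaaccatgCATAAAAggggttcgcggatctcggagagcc
CXCL2: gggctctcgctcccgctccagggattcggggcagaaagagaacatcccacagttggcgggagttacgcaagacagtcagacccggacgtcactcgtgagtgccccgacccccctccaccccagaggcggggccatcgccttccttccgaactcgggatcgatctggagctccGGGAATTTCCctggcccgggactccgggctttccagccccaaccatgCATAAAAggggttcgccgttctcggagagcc
CXCL8: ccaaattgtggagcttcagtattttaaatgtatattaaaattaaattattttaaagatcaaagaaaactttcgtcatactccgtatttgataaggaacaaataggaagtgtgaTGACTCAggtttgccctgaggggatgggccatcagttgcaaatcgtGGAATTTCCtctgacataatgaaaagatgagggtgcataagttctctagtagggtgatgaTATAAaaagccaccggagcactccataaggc
CCL20: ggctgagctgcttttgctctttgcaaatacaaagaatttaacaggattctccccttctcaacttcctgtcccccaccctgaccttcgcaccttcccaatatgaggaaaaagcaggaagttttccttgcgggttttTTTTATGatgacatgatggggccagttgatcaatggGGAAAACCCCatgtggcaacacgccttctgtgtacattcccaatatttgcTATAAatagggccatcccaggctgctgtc
IL6: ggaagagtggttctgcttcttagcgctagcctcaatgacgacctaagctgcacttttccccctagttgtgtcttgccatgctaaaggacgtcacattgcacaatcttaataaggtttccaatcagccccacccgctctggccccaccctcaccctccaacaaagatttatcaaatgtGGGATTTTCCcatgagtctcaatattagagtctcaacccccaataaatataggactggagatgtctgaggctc
IL24: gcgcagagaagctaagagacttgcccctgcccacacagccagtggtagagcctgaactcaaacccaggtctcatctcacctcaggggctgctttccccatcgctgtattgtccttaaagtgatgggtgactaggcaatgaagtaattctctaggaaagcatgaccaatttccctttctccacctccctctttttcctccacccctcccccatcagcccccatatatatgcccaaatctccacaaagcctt

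The motifs searched on both strands were TATAA, the AP-1 motif TGANTCA, the kB motif GGAATTTCC, the NF-kB consensus by name, and CATAAAA. One spelling of the NF-kB consensus contains GGAATTTCC, so these matches can overlap. In CXCL1 and CXCL2 the consensus match reads GGGAATTTCC, at 79 to 70 and at 78 to 69 bases before the start, with GGAATTTCC inside it, and both genes carry CATAAAA at 31 to 25 bases. Among 35116 RefSeq windows of the same length, 6.88% held the NF-kB consensus, 0.413% held GGAATTTCC and 3.4% held CATAAAA. CXCL8 carries GGAATTTCC at 91 to 83 bases, an AP-1 match at 137 to 131 bases and TATAA at 31 to 27 bases. The AP-1 motif was found in 6.57% and TATAA in 18.9% of all windows.

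CCL20 has an NF-kB consensus match on the opposite strand at 79 to 70 bases, CATAAAA on the opposite strand at 115 to 109 bases and TATAA at 29 to 25 bases, and IL6 has an NF-kB consensus match, GGGATTTTCC, at 73 to 64 bases. IL11 has an AP-1 match at 96 to 90 bases and TATAA at 29 to 25 bases, IL1B has CATAAAA at 31 to 25 bases, and both IL1A windows hold AP-1 matches. None of the searched letters occurs in the IL24 window, which says only that they are not in these 250 bases. TATAA was the only TATA spelling searched, and the printed IL24 window holds the letters tatata near its end. The windows of CXCL1 and CXCL2 were 67.9% identical when aligned, and those of CXCL1 and CXCL8 41.6%. A match is a description of the letters and not a measured binding site.

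**Figure D1:**
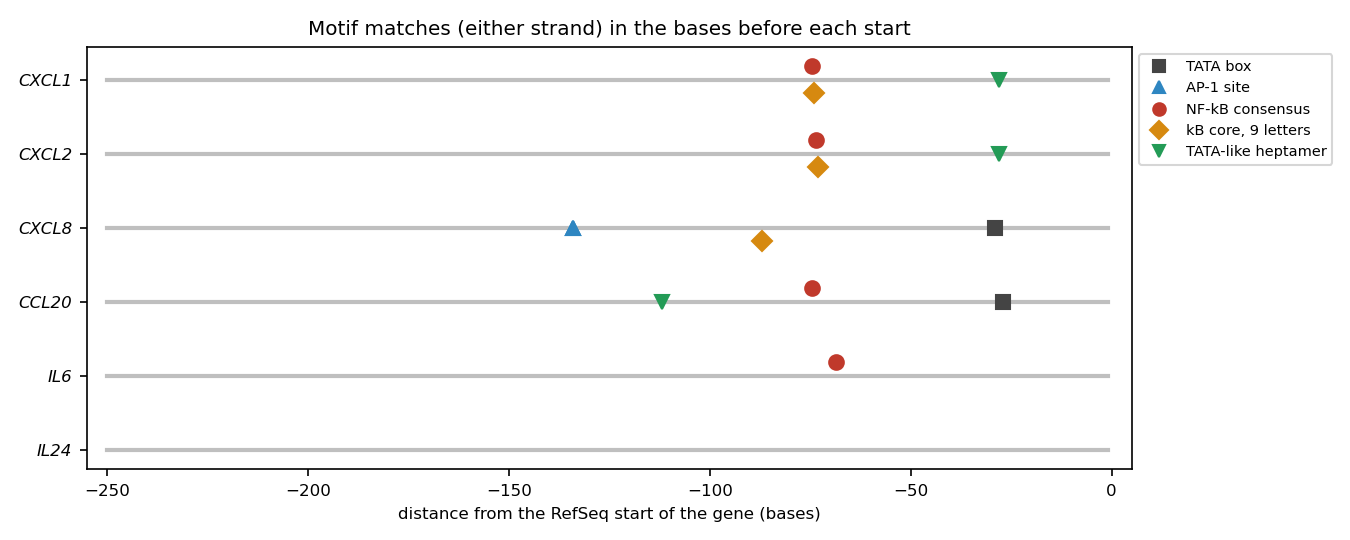
Positions of motif matches in the 250 bases before the RefSeq start of 6 genes (horizontal axis, distance from the start in bases); each symbol is the centre of a match on either strand. Of the motifs searched, CXCL1 and CXCL2 have the same arrangement, and CXCL8 and CCL20 each have a kB-type match and TATAA. IL6 has a kB-type match alone, and IL24 has none of the motifs searched.

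Depth ran from 143269192 to 303323552 counts per library, so that 3 counts, taken as the limit of detection, correspond to 0.00989 to 0.0209 CPM. CPM here is counts per 1000000 counts of library size after TMM scaling, which was done within each table, so levels set side by side across the tables are approximate. SRSF3 RNA was higher than in the control by 0.49 on the log2 scale (1.40-fold) in SRSF3 OE and by 0.31 (1.24-fold) in 3xSR. SRSF7 RNA was higher by 0.26 (1.20-fold) in SRSF7 OE and by 0.44 (1.35-fold) in 3xSR. SRSF2 RNA, in contrast, was 386 CPM in the libraries labelled 3xSR against 403 in 3XCTL (edgeR adjusted p = 0.389). In those labelled SRSF2 OE it was 398 CPM against 444 in 1xCtrl (adjusted p = 0.098). The names 3xSR and SRSF2 OE are therefore used as labels throughout. In the libraries labelled SRSF2 OE, SRSF3 RNA (log2 0.30, adjusted p = 0.00794) and SRSF7 RNA (log2 0.24, adjusted p = 0.00681) were higher than in 1xCtrl. SRSF7 was at 428 CPM there and at 435 CPM in SRSF7 OE (adjusted p = 0.812 between the 2 lines). In SRSF7 OE, SRSF2 RNA fell (log2 -0.38, adjusted p = 0.0018) and MYC RNA rose (log2 0.27, adjusted p = 0.00608). MYC RNA rose in MYC-OE by 0.90 on the log2 scale and also in 3xSR by 0.75, and SRSF2 RNA fell in MYC-OE (log2 -0.48, adjusted p = 2.32e-05). The part of these levels in the results below was not tested. All 12 epithelial and basal keratin markers were expressed in every library. ESR1 was between 6.49 and 11.5 CPM, PGR reached 1.46 CPM and ERBB2 lay between 99.6 and 184 CPM.

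Markers of cells that also make these cytokines were looked up because the counts are of bulk RNA, in which fewer cells of a type and less RNA per cell cannot be told apart. Of 13 leukocyte markers, 10 were under 1 CPM in every library and 4 (AIF1, CD2, MS4A1 and TYROBP) were at 0 counts throughout. The pan-leukocyte gene PTPRC did not pass 0.539 CPM and the macrophage gene LYZ did not pass 0.0827 CPM, while the myeloid genes CD14 and CSF1R reached 2.63 and 2.06 CPM. The summed level of the list did move with the groups, from 9.88 to 15.4 CPM in 3XCTL to 19.5 to 23.2 CPM in 3xSR and 36.1 to 40.3 CPM in MYC-OE. In the second table the sum was 12.2 to 20.6 CPM in 1xCtrl, 23.1 to 25.4 CPM in SRSF2 OE, 31.3 to 34.7 CPM in SRSF3 OE and 23.9 to 28.3 CPM in SRSF7 OE. Most of it was CD68, a lysosomal gene, and without CD68 the sum of group means lay between 2.48 and 4.38 CPM. The fibroblast list, 5 of whose 9 genes were under 1 CPM everywhere, summed to 54.8 to 57.3 CPM in 3XCTL and to 27.8 to 43.1 CPM in the other groups, and 5 of 6 endothelial markers were under 1 CPM. The part of these markers in the results below was not tested.

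The levels of the genes differed widely within 1 cell line. Per kilobase of exon, the group means of IL1A ran from 6.43 to 30.1 CPM per kb, those of CXCL1 from 7.60 to 17.7 and those of CXCL8 from 4.31 to 12.3. IL1B, LIF, CXCL2, IL11 and CCL20 followed, between 0.29 and 7.37 CPM per kb. IL6 was the lowest on this scale, from 0.0551 in SRSF7 OE to 0.423 in SRSF3 OE. IL24 covered the widest range, from 0.121 CPM per kb in SRSF7 OE to 7.71 in SRSF3 OE, so that it was close to the lowest genes in some lines and close to IL1B in another.

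**Figure D2:**
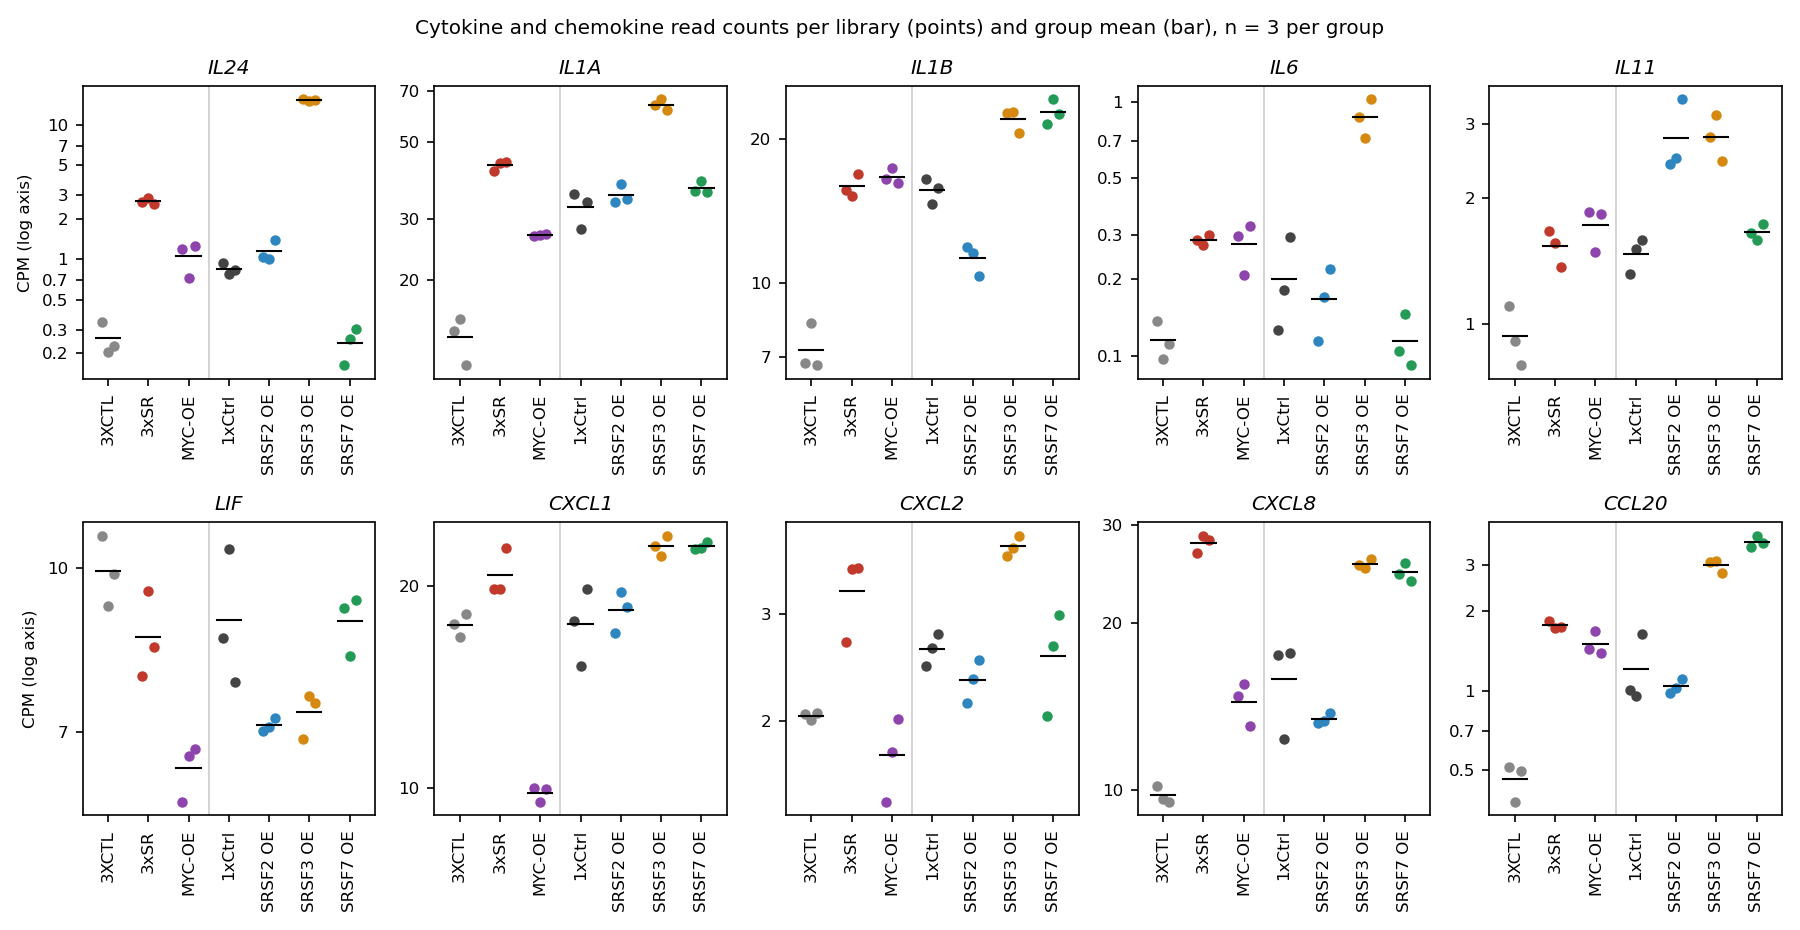
CPM of each of the 10 genes (vertical axis, log scale, a separate scale in each panel) in each of the 21 libraries, by group; points are libraries and bars are group means (n = 3), and the grey line separates the 2 tables, which were scaled separately. IL24 spans the widest range and LIF the narrowest. Of the chemokines drawn, CXCL1 alone lies wholly below 3XCTL in MYC-OE, where CXCL2 is lower on average but overlaps the control.

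IL24 (chr1:206897443-206904139, plus strand, GRCh38, GENCODE 29) was higher in 3xSR and in MYC-OE than in 3XCTL. It was at 0.344, 0.205 and 0.228 CPM in the 3 libraries of 3XCTL, at 2.65, 2.85 and 2.59 CPM in 3xSR and at 1.19, 0.726 and 1.25 CPM in MYC-OE. The 3 groups did not overlap, and the order from low to high was 3XCTL, MYC-OE, 3xSR. The change was 3.37 ± 0.246 on the log2 scale in 3xSR (SE, n = 3 against 3, 10.3-fold, edgeR adjusted p = 1.39e-06) and 2.01 ± 0.239 in MYC-OE (4.04-fold, adjusted p = 4.64e-05). The difference between the 2 lines was itself past the threshold, with MYC-OE lower than 3xSR by a log2 value of -1.35 (adjusted p = 0.000668).

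In the second table the order from low to high was SRSF7 OE, 1xCtrl, SRSF2 OE, SRSF3 OE. IL24 was at 0.931, 0.78 and 0.837 CPM in 1xCtrl, at 0.163, 0.255 and 0.303 CPM in SRSF7 OE, at 1.04, 1.00 and 1.39 CPM in SRSF2 OE and at 15.5, 15.0 and 15.3 CPM in SRSF3 OE. No 2 of these groups overlapped. In SRSF7 OE IL24 fell by 1.81 ± 0.193 on the log2 scale (3.51-fold lower, adjusted p = 9.73e-05). Its direction there was opposite to that in the line labelled 3xSR, which was compared with a different control. The difference between the neighbouring levels of 1xCtrl and SRSF2 OE did not pass the threshold (log2 0.43, edgeR adjusted p = 0.109), while DESeq2 placed the difference just past the threshold (adjusted p = 0.0495). SRSF2 OE and SRSF7 OE differed from each other by 2.24 on the log2 scale (adjusted p = 7.26e-06). The level in SRSF3 OE, 18.0-fold that of 1xCtrl, is the value for which the gene was chosen. All 3 comparisons with 1xCtrl use the same 3 control libraries.

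The genes around IL24 did not all follow it. IL10, the founding member of the cluster, had 0 counts in every library, which allows up to 0.0209 CPM in the shallowest. IL20, at 0.0871, 0.054 and 0 CPM in 3XCTL, was at 0.121, 0.264 and 0.0769 CPM in 3xSR (log2 1.67, adjusted p = 0.139) and at 0.15, 0.204 and 0.132 CPM in MYC-OE (log2 1.73, adjusted p = 0.112). IL20 was at 0.182, 0.108 and 0.0737 CPM in 1xCtrl and at 0.798, 0.686 and 0.6 CPM in SRSF3 OE, the same line in which IL24 was at its highest. IL19 rose in 3xSR by 1.91 on the log2 scale (adjusted p = 0.0117), at levels between 0.157 and 0.433 CPM, and in MYC-OE it was lower than in 3xSR (log2 -1.63, adjusted p = 0.0201). IL20 and IL19 thus stayed under 1 CPM in every library.

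Beyond the interleukins, MAPKAPK2, a kinase gene upstream of the cluster, had log2 values of -0.08 in 3xSR (adjusted p = 0.303) and 0.12 in SRSF7 OE (adjusted p = 0.264). FCMR, an IgM receptor gene next to IL24 on the opposite strand, had log2 values of 0.33 in 3xSR (adjusted p = 0.0931), 0.37 in MYC-OE (adjusted p = 0.05, at the threshold), 0.35 in SRSF2 OE (adjusted p = 0.0796) and -0.34 in SRSF7 OE (adjusted p = 0.097). Its values in SRSF2 OE and SRSF7 OE differed (log2 0.69, adjusted p = 0.00223), in the same direction as for IL24. PIGR, the polymeric immunoglobulin receptor gene, was low throughout. It fell in SRSF2 OE from 0.572 to 0.112 CPM (log2 -2.35, adjusted p = 0.00421) and in MYC-OE from 0.516 to 0.306 CPM (log2 -0.76, adjusted p = 0.029). PFKFB2, a regulator of glycolysis, fell in SRSF7 OE from 65.5 to 40.7 CPM (log2 -0.69, adjusted p = 6.81e-05), as IL24 did, and in MYC-OE (log2 -0.75, adjusted p = 8.75e-07), where IL24 rose. YOD1, a deubiquitinase gene inside the PFKFB2 locus on the opposite strand, fell in SRSF7 OE (log2 -0.47, adjusted p = 0.00737), SRSF2 OE (log2 -0.40, adjusted p = 0.0115) and MYC-OE (log2 -0.48, adjusted p = 0.000196) and rose in 3xSR (log2 0.23, adjusted p = 0.0249). Without the strand setting of the counting, reads of YOD1 and PFKFB2 cannot be told apart where they overlap. C1orf116 rose in 3xSR (log2 0.24, adjusted p = 0.00208), MYC-OE (log2 0.30, adjusted p = 0.000342) and SRSF2 OE (log2 0.36, adjusted p = 0.000386). C4BPB, a subunit of a complement inhibitor, rose at a low level in SRSF2 OE, from 0.304 to 0.664 CPM (log2 1.12, adjusted p = 0.0131). FCAMR was too low to be tested. The neighbours within 200 kb were looked at after the values of IL24 had been seen.

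IL1A (chr2:112773915-112784590, minus strand), which encodes IL-1 alpha, had the highest CPM per kilobase of the members in 5 of the 7 groups. It was at 14.3, 15.4 and 11.3 CPM in 3XCTL, at 41.3, 43.4 and 43.8 CPM in 3xSR and at 26.7, 26.9 and 27.2 CPM in MYC-OE, with no overlap among the groups. The changes were 1.65 ± 0.0926 (SE) on the log2 scale in 3xSR (adjusted p = 1.61e-07) and 0.98 in MYC-OE (adjusted p = 6.54e-06), and the 2 lines differed (log2 -0.67, adjusted p = 0.000176). In the lines of the second table IL1A was at 35.5, 28.1 and 33.6 CPM in 1xCtrl, at 33.6, 37.8 and 34.3 CPM in SRSF2 OE, at 36.1, 38.5 and 35.8 CPM in SRSF7 OE and at 63.9, 66.4 and 61.8 CPM in SRSF3 OE. SRSF3 OE stood above the other groups, while SRSF2 OE overlapped the control. Neither SRSF2 OE (log2 0.12, adjusted p = 0.329) nor SRSF7 OE (log2 0.18, adjusted p = 0.15) passed the threshold, although both did once each library's GC trend was removed (log2 0.21 in each, adjusted p = 0.00452 and 0.00434).

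IL1B (chr2:112829751-112836903, minus strand), which encodes IL-1 beta, was at 6.80, 8.25 and 6.73 CPM in 3XCTL, at 15.7, 15.2 and 16.9 CPM in 3xSR and at 16.5, 17.4 and 16.2 CPM in MYC-OE. Both lines were above the control and overlapped each other. The log2 changes were 1.14 ± 0.0877 (SE) in 3xSR (adjusted p = 2.13e-06) and 1.20 in MYC-OE (adjusted p = 8.4e-07), and the difference between them was 0.07 (adjusted p = 0.586). The lines named for SRSF2 and SRSF7 split. IL1B was at 16.5, 14.7 and 15.8 CPM in 1xCtrl, at 11.9, 11.6 and 10.4 CPM in SRSF2 OE, at 21.5, 24.3 and 22.6 CPM in SRSF7 OE and at 22.7, 22.9 and 20.6 CPM in SRSF3 OE. It fell by 0.47 on the log2 scale in SRSF2 OE (adjusted p = 0.000903) and rose by 0.54 in SRSF7 OE (adjusted p = 0.000831). SRSF2 OE and SRSF7 OE differed by a log2 value of -1.02 (adjusted p = 3.39e-06).

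The balance of the 2 IL-1 ligands can be read within each library, where scaling between libraries plays no part. Transcript GC content is 39.1% for IL1A and 47.8% for IL1B, so a GC trend of a library need not cancel. No ratio was recomputed with that trend removed. The ratio of IL1A to IL1B read counts was 1.88 ± 0.208 (SD, n = 3) in 3XCTL, 2.69 ± 0.138 in 3xSR and 1.61 ± 0.0683 in MYC-OE. It was 2.06 ± 0.127 in 1xCtrl, 3.13 ± 0.265 in SRSF2 OE and 1.61 ± 0.0536 in SRSF7 OE. In SRSF3 OE, described without a test, it was 2.81, 2.91 and 2.99. The ratio was higher than in the control in every library of 3xSR and SRSF2 OE and lower in every library of MYC-OE and SRSF7 OE, by the smallest margin in MYC-OE (1.68 against 1.682 in the nearest libraries). With 3 libraries against 3, the smallest two-sided p of an exact permutation test is 0.1, and each of these comparisons gave that value (0.111 after Benjamini-Hochberg adjustment over 10 comparisons of ratios).

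The gp130 cytokines moved in different directions. IL6 (chr7:22725884-22732002, plus strand) was the scarcest member, at 0.137, 0.0971 and 0.111 CPM in 3XCTL, at 0.285, 0.274 and 0.300 CPM in 3xSR and at 0.296, 0.209 and 0.326 CPM in MYC-OE. Both lines lay above the control (log2 1.31 ± 0.293, SE, adjusted p = 0.0056 in 3xSR; log2 1.26, adjusted p = 0.00519 in MYC-OE). It was at 0.127, 0.182 and 0.295 CPM in 1xCtrl, at 0.114, 0.171 and 0.219 CPM in SRSF2 OE, at 0.104, 0.146 and 0.0915 CPM in SRSF7 OE and at 0.874, 0.723 and 1.03 CPM in SRSF3 OE. Apart from SRSF3 OE these groups overlapped, and neither SRSF2 OE (adjusted p = 0.63) nor SRSF7 OE (adjusted p = 0.123) passed. A stretch of 428 exon bases of IL6 overlaps STEAP1B and another gene on the opposite strand, and the strand setting of the counting is not given in the sources used here.

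IL11 (chr19:55364389-55370463, minus strand), a relative of IL6 known from bone and stroma, rose in both lines of the first table. It was at 1.10, 0.907 and 0.794 CPM in 3XCTL, at 1.66, 1.56 and 1.37 CPM in 3xSR (log2 0.71, adjusted p = 0.00594) and at 1.85, 1.49 and 1.83 CPM in MYC-OE (log2 0.88, adjusted p = 0.00114). Against the single plasmid control, at 1.31, 1.5 and 1.58 CPM, it was at 2.40, 2.49 and 3.44 CPM in SRSF2 OE, at 1.65, 1.58 and 1.73 CPM in SRSF7 OE and at 2.79, 3.16 and 2.44 CPM in SRSF3 OE. IL11 was the 1 member that rose in SRSF2 OE (log2 0.92, adjusted p = 0.000985), and SRSF7 OE did not pass (log2 0.17, adjusted p = 0.506). The 2 lines differed by 0.75 on the log2 scale (adjusted p = 0.00345).

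LIF (chr22:30240447-30246851, minus strand), leukemia inhibitory factor, was the member that rose in no line. It was at 10.7, 9.21 and 9.88 CPM in 3XCTL, at 7.90, 9.51 and 8.42 CPM in 3xSR and at 6.01, 6.65 and 6.74 CPM in MYC-OE. 3xSR overlapped the control (log2 -0.21, adjusted p = 0.121, or 0.0434 without 3XCTL replicate 2), and MYC-OE lay below it (log2 -0.62, adjusted p = 3e-04). LIF was at 8.59, 10.4 and 7.80 CPM in 1xCtrl, at 7.01, 7.07 and 7.21 CPM in SRSF2 OE, at 9.18, 8.26 and 9.32 CPM in SRSF7 OE and at 6.89, 7.57 and 7.46 CPM in SRSF3 OE. The fall in SRSF2 OE (log2 -0.33, adjusted p = 0.0342) was lost when only the 2 groups were fitted (adjusted p = 0.113), without 1xCtrl replicate 2 (adjusted p = 0.0911) and without any 1 of the SRSF2 OE libraries (adjusted p from 0.0778 to 0.0935). SRSF7 OE had a log2 value near 0 (adjusted p = 0.99). LIF shares 267 exon bases with antisense genes, LIF-AS1 among them.

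Of the neutrophil chemokines, CXCL8 and CXCL1 parted in MYC-OE. CXCL8 (chr4:73740506-73743716, plus strand), interleukin-8, was at 10.2, 9.66 and 9.52 CPM in 3XCTL, at 26.7, 28.7 and 28.2 CPM in 3xSR and at 14.8, 15.5 and 13.1 CPM in MYC-OE. Both lines were above the control, by 1.51 ± 0.074 (SE) on the log2 scale in 3xSR (adjusted p = 5.26e-08) and by 0.56 in MYC-OE (adjusted p = 9.32e-05). CXCL1 (chr4:73869393-73871242, plus strand) was at 17.6, 16.8 and 18.2 CPM in 3XCTL, at 19.8, 19.8 and 22.8 CPM in 3xSR and at 10.01, 9.54 and 9.98 CPM in MYC-OE. CXCL1 fell in MYC-OE (log2 -0.83, adjusted p = 3.31e-06) and was higher in 3xSR (log2 0.25, adjusted p = 0.021). The CXCL1 call in 3xSR was lost with only the 2 groups in the fit (adjusted p = 0.0527), without 3XCTL replicate 1 (adjusted p = 0.0729) and without 3xSR replicate 3 (adjusted p = 0.115). Against 3xSR, MYC-OE was lower for CXCL1 (log2 -1.08, adjusted p = 1.4e-06) and for CXCL8 (log2 -0.95, adjusted p = 3.47e-06).

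The ratio of CXCL8 to CXCL1 read counts nevertheless moved the same way in both lines of the first table. It was 0.56 ± 0.0318 (SD, n = 3) in 3XCTL, 1.35 ± 0.105 in 3xSR and 1.47 ± 0.158 in MYC-OE, and both lines were above every control library. The exact permutation test gave p = 0.1 for each (adjusted 0.111), the smallest possible at this size, and p = 0.4 between 3xSR and MYC-OE. In the second table the ratio was 0.898 ± 0.0861 in 1xCtrl, 0.731 ± 0.0497 in SRSF2 OE and 1.08 ± 0.0518 in SRSF7 OE, below and above the control respectively (exact permutation p = 0.1 for each). In SRSF3 OE, described without a test, the ratio was 1.106, 1.131 and 1.095. Transcript GC content is 35.9% for CXCL8 and 49.3% for CXCL1, so a GC trend of a library need not cancel here either.

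**Figure D3:**
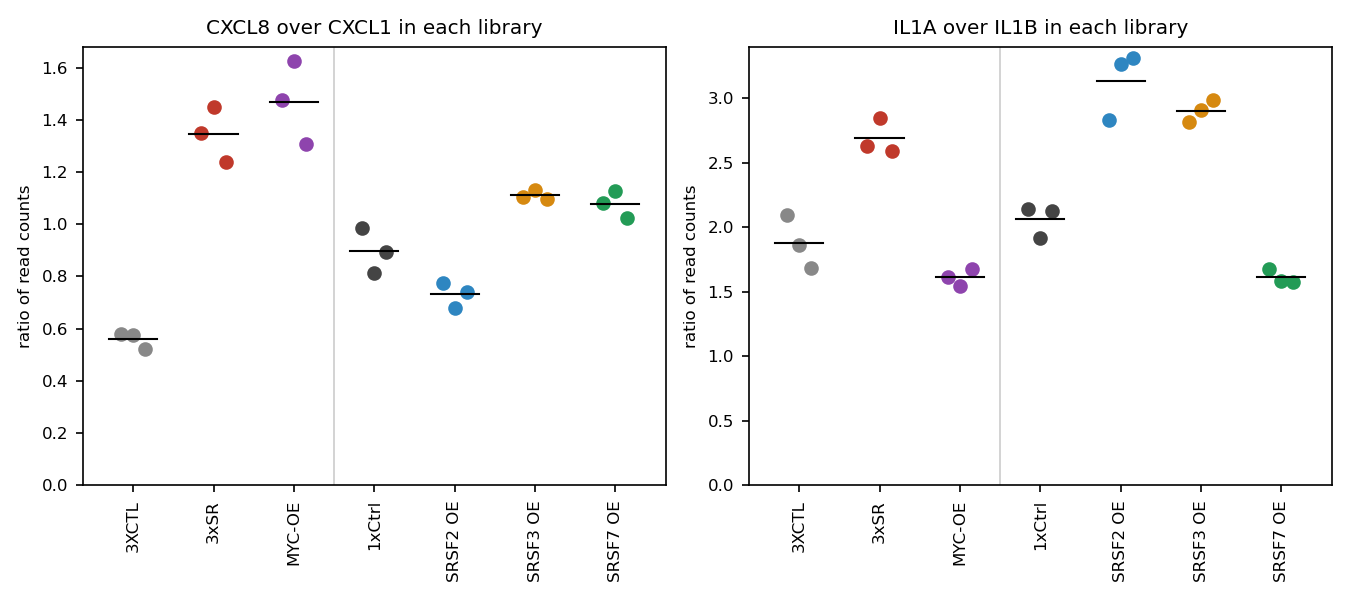
Ratio of read counts of CXCL8 to CXCL1 and of IL1A to IL1B (vertical axes, from 0) within each of the 21 libraries, by group; points are libraries and bars are group means (n = 3). The CXCL8 to CXCL1 ratio is above every 3XCTL library in 3xSR and MYC-OE alike. The IL1A to IL1B ratio is high in 3xSR, SRSF2 OE and SRSF3 OE and low in MYC-OE and SRSF7 OE.

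CXCL8 was at 17.5, 12.4 and 17.7 CPM in 1xCtrl, at 13.2, 13.3 and 13.8 CPM in SRSF2 OE, at 24.6, 25.7 and 23.9 CPM in SRSF7 OE and at 25.4, 25.1 and 26.0 CPM in SRSF3 OE. SRSF7 OE and SRSF3 OE lay above the control and SRSF2 OE overlapped it. The change in SRSF7 OE was 0.64 on the log2 scale (adjusted p = 0.00191), and that in SRSF2 OE was -0.24 (adjusted p = 0.138). Without 1xCtrl replicate 2, the control library with the lowest CXCL8, the value in SRSF2 OE was -0.39 (adjusted p = 0.000117). CXCL1 was at 17.7, 15.2 and 19.8 CPM in 1xCtrl, at 17.0, 19.6 and 18.6 CPM in SRSF2 OE, at 22.7, 22.8 and 23.3 CPM in SRSF7 OE and at 23.0, 22.2 and 23.8 CPM in SRSF3 OE. CXCL1 was higher in SRSF7 OE (log2 0.39, adjusted p = 0.00998, or 0.0544 with only the 2 groups in the fit) and did not pass in SRSF2 OE (log2 0.07, adjusted p = 0.637).

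CXCL2 (chr4:74097035-74099293, minus strand), the close relative of CXCL1, was at 2.06, 2.01 and 2.06 CPM in 3XCTL, at 2.70, 3.56 and 3.56 CPM in 3xSR and at 1.47, 1.78 and 2.02 CPM in MYC-OE. It was higher in 3xSR (log2 0.68, adjusted p = 0.00434), and MYC-OE, which overlapped the control by 1 library, did not pass (log2 -0.22, adjusted p = 0.285). CXCL2 was at 2.46, 2.63 and 2.78 CPM in 1xCtrl, at 2.15, 2.34 and 2.52 CPM in SRSF2 OE, at 2.04, 2.65 and 2.99 CPM in SRSF7 OE and at 3.73, 3.84 and 4.03 CPM in SRSF3 OE. Neither SRSF2 OE (adjusted p = 0.43) nor SRSF7 OE (adjusted p = 0.903) passed, and only SRSF3 OE stood clear of the control. Reads could be shared between near-identical chemokine genes, but of the 1023 stretches of 75 bases in the longest CXCL1 transcript 3 occur in CXCL2, and of 1144 in CXCL2 23 occur in CXCL3.

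CCL20 (chr2:227805739-227817564, plus strand), the CCR6 ligand, was low but changed by the largest factor after IL24 in both lines of the first table. It was at 0.514, 0.378 and 0.494 CPM in 3XCTL, at 1.83, 1.73 and 1.75 CPM in 3xSR and at 1.44, 1.69 and 1.39 CPM in MYC-OE. Both lines were above the control, by 1.93 ± 0.159 (SE) on the log2 scale in 3xSR (adjusted p = 3.62e-06) and by 1.70 in MYC-OE (adjusted p = 6.4e-06), and the difference between the lines did not pass (log2 -0.23, adjusted p = 0.261). CCL20 was at 1.01, 0.958 and 1.64 CPM in 1xCtrl, at 0.976, 1.02 and 1.11 CPM in SRSF2 OE, at 3.52, 3.87 and 3.64 CPM in SRSF7 OE and at 3.07, 3.12 and 2.80 CPM in SRSF3 OE. It rose by 1.61 on the log2 scale in SRSF7 OE (adjusted p = 0.00012), the line in which IL24 fell, and SRSF2 OE overlapped the control (log2 -0.21, adjusted p = 0.443). SRSF2 OE was below SRSF7 OE (log2 -1.83, adjusted p = 1.92e-05).

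**Figure D4:**
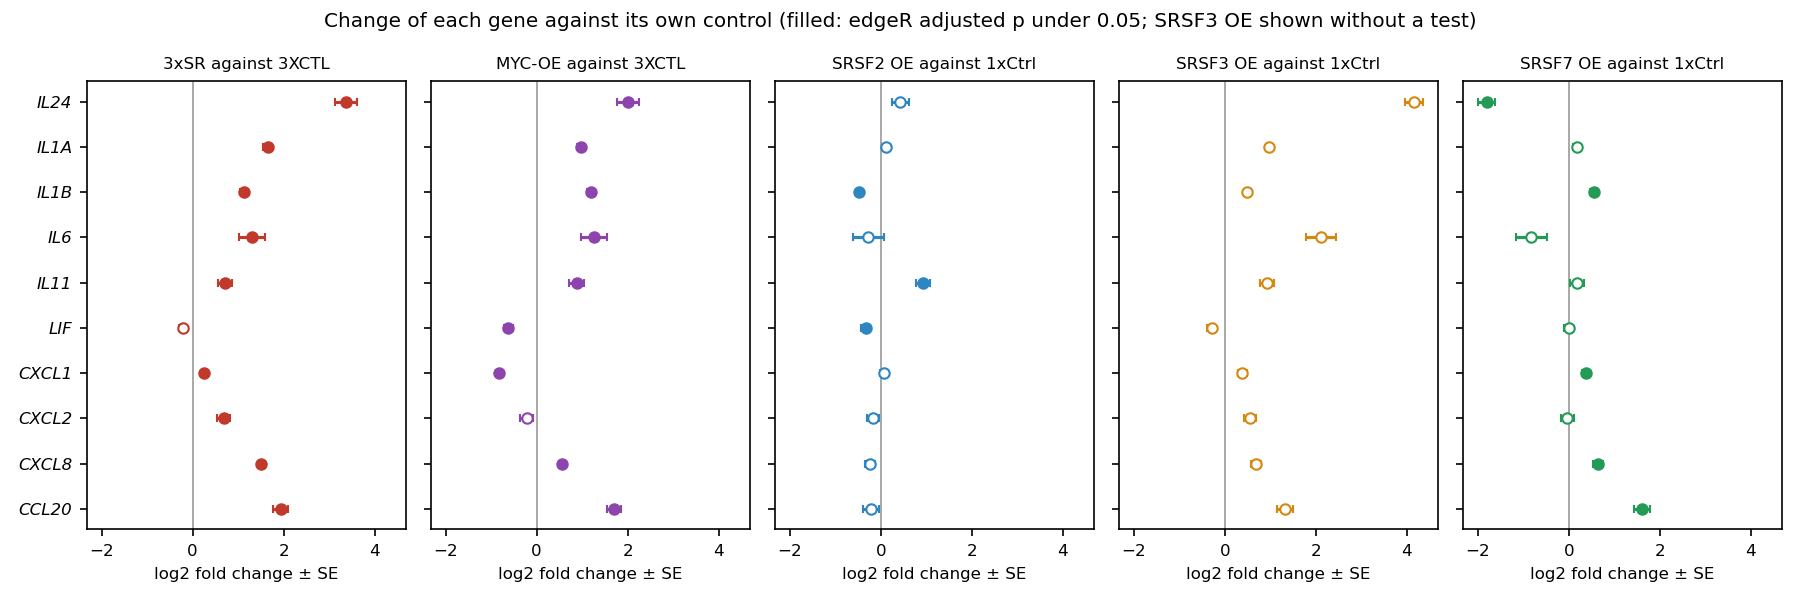
Log2 fold change with its SE (horizontal axis) of each gene in each line against its own control, n = 3 against 3; filled points have an edgeR adjusted p under 0.05, and SRSF3 OE is drawn without a test. In 3xSR all genes but LIF lie to the right of 0, in MYC-OE LIF, CXCL1 and CXCL2 lie to the left, and in SRSF7 OE IL24 and CCL20 lie on opposite sides.

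Counted together, 9 of the 10 genes were higher in 3xSR and 0 lower, where 29% of the 23160 genes tested were called, 15.3% higher and 13.7% lower. The median log2 change of the 10 was 1.22, and that of all genes -0.0038. In MYC-OE 7 were higher and 2 lower, where 35.3% of all genes were called, 18% higher and 17.3% lower, and the median of the 10 was 0.93. 3xSR and MYC-OE share the 3XCTL libraries, in which several members were lower than in 1xCtrl (means under Other observations). In MYC-OE against 3xSR 6 of 10 were lower and 0 higher, where 34.9% of all genes were called and 17.6% were lower.

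By overlap of CPM between libraries, the groups stood fully apart for 9 of the 10 genes in 3xSR against its control (40.2% of all genes tested), 9 in MYC-OE (48.3%), 4 in SRSF2 OE (35.9%) and 7 in SRSF7 OE (32.6%). The number was 7 between MYC-OE and 3xSR (53.2%) and 7 between SRSF2 OE and SRSF7 OE (46%).

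In SRSF2 OE 1 was higher and 2 were lower of 10, close to the 23.5% of the 24362 genes tested that were called, and the median was -0.19. In SRSF7 OE 4 were higher and 1 lower, where 17.3% of all genes were called, 9.03% higher and 8.26% lower, and the median was 0.18. Between SRSF2 OE and SRSF7 OE 7 of 10 differed, 2 of them higher in SRSF2 OE, where 24.2% of all genes were called. The log2 values in SRSF3 OE, the contrast that chose IL24, were 4.17 for IL24, 2.12 for IL6, 1.32 for CCL20, 0.98 for IL1A, 0.93 for IL11, 0.69 for CXCL8, 0.56 for CXCL2, 0.49 for IL1B, 0.39 for CXCL1 and -0.29 for LIF.

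Across the 21 libraries, each taken as log2 CPM minus the mean of its table's controls, IL24 was most like IL6 among the members (Pearson r = 0.932) while its r was lowest with LIF (r = -0.489) and near 0 with CXCL1 (r = -0.029). IL1B was most like CCL20 (r = 0.894), CXCL8 was close to CCL20 (r = 0.886) and to IL1A (r = 0.875), and IL11 and LIF ran against each other (r = -0.706). These are descriptions over libraries that share groups and controls. The 3 SRSF3 OE libraries, by whose values IL24 was chosen, weigh heavily in those of IL24. Among 13801 genes compared, those most like IL24 were DUSP1 (r = 0.978), CLMP (r = 0.972), H4C8 (r = 0.964), GRAMD1B (r = 0.952) and CIART (r = 0.943). DUSP1 encodes a phosphatase of MAP kinases, CLMP a cell adhesion protein, and H4C8 a histone H4 with near-identical copies elsewhere, whose reads are uncertain for that reason. Those most like IL1B were FAM171B (r = 0.969), LPAR3, a lysophosphatidic acid receptor (r = 0.967), MME, the peptidase neprilysin (r = 0.955), APLN, the peptide apelin (r = 0.949) and PPP1R9A (r = 0.946).

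DUSP1 rose in 3xSR to 8.81 CPM (log2 1.21, adjusted p = 1.82e-06) in MYC-OE (log2 0.66, adjusted p = 0.000152) and in SRSF2 OE (log2 0.27, adjusted p = 0.0424), and it fell in SRSF7 OE (log2 -0.39, adjusted p = 0.0091). CLMP likewise rose in 3xSR (log2 1.18, adjusted p = 9.12e-08) and MYC-OE (log2 0.44, adjusted p = 0.00016) and fell in SRSF7 OE (log2 -0.49, adjusted p = 0.0014). MME, of the IL1B-like genes, rose in 3xSR from 6.07 to 38.1 CPM (log2 2.65, adjusted p = 2.1e-09), in MYC-OE (log2 2.07, adjusted p = 5.24e-09) and in SRSF7 OE (log2 0.58, adjusted p = 0.00173), and fell in SRSF2 OE (log2 -0.50, adjusted p = 0.00215). As these genes were picked for likeness, their directions follow from the choice and their p-values are no independent evidence.

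Lists of related genes were read against the share of all genes called, which was 29% in 3xSR, 35.3% in MYC-OE, 23.5% in SRSF2 OE and 17.3% in SRSF7 OE. The lists were not matched to all genes on expression, and their shares are given in the same order of lines. The receptors of IL24 were present. IL20RA, the first chain of its receptor, was at 70.5 CPM in 3XCTL and fell in 3xSR (log2 -0.34, adjusted p = 0.000159), in MYC-OE (log2 -0.52, adjusted p = 3.99e-06) and in SRSF7 OE (log2 -0.38, adjusted p = 0.00991). IL20RB, the shared chain, rose in MYC-OE from 146 to 228 CPM (log2 0.64, adjusted p = 1.75e-06). IL22RA1, the alternative first chain, fell in 3xSR (log2 -0.29, adjusted p = 0.0451) and SRSF2 OE (log2 -0.57, adjusted p = 0.00285). Of 6 tested genes of the IL-20 subfamily and its receptors, 1 was higher and 2 were lower in 3xSR, 1 and 1 in MYC-OE, 0 and 2 in SRSF2 OE, and 0 and 1 in SRSF7 OE. The calls are 50%, 33.3%, 33.3% and 16.7% of the list.

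Among 21 tested genes of the IL-1 family, its receptors and the inflammasome, 8 were higher and 4 lower in 3xSR, 7 and 5 in MYC-OE, 7 and 4 in SRSF2 OE, and 3 and 1 in SRSF7 OE. The calls are 57.1%, 57.1%, 52.4% and 19% of the list, the last near the share of all genes. IL1RL1, the receptor of IL-33, rose in 3xSR (log2 2.30, adjusted p = 1.84e-06), MYC-OE (log2 1.60, adjusted p = 2.02e-05) and SRSF2 OE (log2 2.08, adjusted p = 1.62e-06). IL1RL1 fell in SRSF7 OE, at levels under 1 CPM on average (log2 -0.49, adjusted p = 0.0334). IL1R2, the decoy receptor that binds IL-1 without signalling, rose in 3xSR (log2 1.23, adjusted p = 6.73e-05), MYC-OE (log2 0.72, adjusted p = 0.00223) and SRSF2 OE (log2 0.96, adjusted p = 0.000411). IL1RN, the secreted antagonist of the IL-1 receptor, fell in 3xSR from 9.41 to 6.33 CPM (log2 -0.57, adjusted p = 0.00014) and in MYC-OE (log2 -0.62, adjusted p = 5.45e-05), the lines in which both ligands rose, and it rose in SRSF2 OE (log2 0.54, adjusted p = 0.00432). IL1R1, the signalling receptor, also fell in 3xSR (log2 -0.46, adjusted p = 0.00364) and MYC-OE (log2 -0.34, adjusted p = 0.0148). NLRP3, an inflammasome sensor, rose in SRSF2 OE from 0.43 to 1.59 CPM (log2 1.89, adjusted p = 8.77e-06) and, at levels under 1 CPM on average, in 3xSR (log2 0.68, adjusted p = 0.0469), MYC-OE (log2 0.83, adjusted p = 0.0153) and SRSF7 OE (log2 0.58, adjusted p = 0.0283). PYCARD, the inflammasome adaptor, fell in 3xSR (log2 -0.40, adjusted p = 0.00726) and rose in MYC-OE (log2 0.47, adjusted p = 0.00206) and SRSF7 OE (log2 0.67, adjusted p = 0.0165).

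Of 17 tested genes of gp130 cytokines, receptors and signalling, 7 were higher and 1 lower in 3xSR, 7 and 3 in MYC-OE, 4 and 2 in SRSF2 OE, and 2 and 1 in SRSF7 OE. The calls are 47.1%, 58.8%, 35.3% and 17.6% of the list, the last again near the share of all genes. LIFR, the receptor chain of LIF, rose in 3xSR from 0.957 to 3.23 CPM (log2 1.75, adjusted p = 4.55e-07), in MYC-OE to 5.30 CPM (log2 2.47, adjusted p = 1.79e-08) and in SRSF7 OE (log2 0.56, adjusted p = 0.00641), opposite in MYC-OE to its ligand. IL6R, the IL-6 receptor chain, rose in 3xSR from 22.4 to 39.5 CPM (log2 0.82, adjusted p = 1.92e-06) and in MYC-OE (log2 0.35, adjusted p = 0.00103) and fell in SRSF2 OE (log2 -0.32, adjusted p = 0.00381). PIM1, a kinase gene induced by STAT3, rose in 3xSR (log2 0.76, adjusted p = 1.2e-06), MYC-OE (log2 0.89, adjusted p = 1.99e-07), SRSF2 OE (log2 0.57, adjusted p = 1.78e-05) and SRSF7 OE (log2 0.41, adjusted p = 0.000517).

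Of 14 tested genes of other chemokines and chemokine receptors, 7 were higher and 3 lower in 3xSR, 7 and 5 in MYC-OE, 1 and 5 in SRSF2 OE, and 6 and 0 in SRSF7 OE. The calls are 71.4%, 85.7%, 42.9% and 42.9% of the list. CCL5, a T cell attractant, rose in MYC-OE from 0.143 to 2.69 CPM (log2 4.23, adjusted p = 1.73e-08). It also rose in SRSF7 OE (log2 1.20, adjusted p = 0.00382). At levels under 1 CPM on average, it rose in 3xSR (log2 1.33, adjusted p = 0.000277) and fell in SRSF2 OE (log2 -0.78, adjusted p = 0.0303). Of the ligands of CXCR2, CXCL5 rose in 3xSR (log2 0.91, adjusted p = 0.0147) and SRSF7 OE (log2 0.88, adjusted p = 0.0146). CXCL5 fell in MYC-OE, at levels under 1 CPM on average (log2 -1.09, adjusted p = 0.00475). CXCL6 fell in MYC-OE too (log2 -0.90, adjusted p = 4.38e-05), as CXCL1 did, and rose in SRSF7 OE (log2 0.73, adjusted p = 0.00437). CXCL3 rose in 3xSR (log2 0.90, adjusted p = 0.000286), MYC-OE (log2 0.39, adjusted p = 0.0328) and SRSF7 OE (log2 0.445, adjusted p = 0.0353). ACKR3, a scavenging receptor of CXCL12, fell in 3xSR from 79.9 to 37.9 CPM (log2 -1.08, adjusted p = 1.29e-06) and in MYC-OE (log2 -0.47, adjusted p = 0.000564).

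Of 23 tested NF-kB subunits, inhibitors and kinases, 5 were higher and 3 lower in 3xSR, 5 and 8 in MYC-OE, 1 and 5 in SRSF2 OE, and 4 and 4 in SRSF7 OE. The calls are 34.8%, 56.5%, 26.1% and 34.8% of the list, near the share of all genes in 3xSR and SRSF2 OE. TNFAIP3, the NF-kB-induced inhibitor A20, rose in 3xSR from 28.4 to 65.2 CPM (log2 1.20, adjusted p = 2.18e-08), in MYC-OE (log2 0.62, adjusted p = 2.16e-06) and in SRSF2 OE (log2 0.94, adjusted p = 2.85e-07). BIRC3, another NF-kB target, rose in 3xSR (log2 1.07, adjusted p = 5.45e-06) and fell in SRSF2 OE (log2 -0.83, adjusted p = 8.85e-05), where the subunit gene REL fell as well (log2 -0.88, adjusted p = 8.84e-06). REL also fell in MYC-OE (log2 -0.36, adjusted p = 0.00104) and SRSF7 OE (log2 -0.38, adjusted p = 0.00559) and rose in 3xSR (log2 0.23, adjusted p = 0.0208). The inhibitor gene NFKBIB fell in MYC-OE from 20.1 to 9.05 CPM (log2 -1.15, adjusted p = 1.06e-07) and by less in 3xSR (log2 -0.19, adjusted p = 0.0437) and SRSF7 OE (log2 -0.27, adjusted p = 0.0364). The subunit gene RELB rose in MYC-OE (log2 0.72, adjusted p = 0.00116) and SRSF7 OE (log2 0.62, adjusted p = 0.0458). The inhibitor gene TNIP1 rose in the same lines (log2 0.45, adjusted p = 0.000374 in MYC-OE and log2 0.51, adjusted p = 0.00111 in SRSF7 OE), and NFKBIA rose in SRSF7 OE (log2 0.29, adjusted p = 0.00311).

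Of 18 tested genes of cytokine mRNA decay and stabilisation, 6 were higher and 3 lower in 3xSR, 1 and 7 in MYC-OE, 3 and 1 in SRSF2 OE, and 2 and 4 in SRSF7 OE. The calls are 50%, 44.4%, 22.2% and 33.3% of the list, that in SRSF2 OE being near the share of all genes. ZFP36, which binds AU-rich elements and speeds decay, rose in 3xSR (log2 0.33, adjusted p = 0.0107) and fell in MYC-OE from 12.5 to 7.56 CPM (log2 -0.72, adjusted p = 3.65e-05) and in SRSF7 OE (log2 -0.42, adjusted p = 0.0124). ELAVL1, which binds and stabilises such mRNAs, fell in 3xSR (log2 -0.18, adjusted p = 0.0147) and MYC-OE (log2 -0.33, adjusted p = 0.000166).

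Of 13 tested factors of the C/EBP, HIF and ETS kinds, 4 were higher and 4 lower in 3xSR, 6 and 4 in MYC-OE, 2 and 3 in SRSF2 OE, and 4 and 1 in SRSF7 OE. The calls are 61.5%, 76.9%, 38.5% and 38.5% of the list. ATF3, a stress-induced bZIP factor, rose in 3xSR from 3.31 to 8.69 CPM (log2 1.39, adjusted p = 6.12e-07) and MYC-OE (log2 1.18, adjusted p = 1.37e-06) and fell in SRSF7 OE (log2 -0.44, adjusted p = 0.00312). ELF3, an epithelial ETS factor, fell in 3xSR (log2 -0.42, adjusted p = 0.00294) and SRSF2 OE (log2 -0.38, adjusted p = 0.00426) and rose in SRSF7 OE from 49.0 to 83.8 CPM (log2 0.77, adjusted p = 7.81e-05) and in MYC-OE (log2 0.25, adjusted p = 0.0392). CEBPB, a C/EBP factor of the IL6 promoter, rose in 3xSR (log2 0.25, adjusted p = 0.0136), MYC-OE (log2 0.39, adjusted p = 0.000698), SRSF2 OE (log2 0.58, adjusted p = 0.000193) and SRSF7 OE (log2 0.63, adjusted p = 0.000286).

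**Figure D5:**
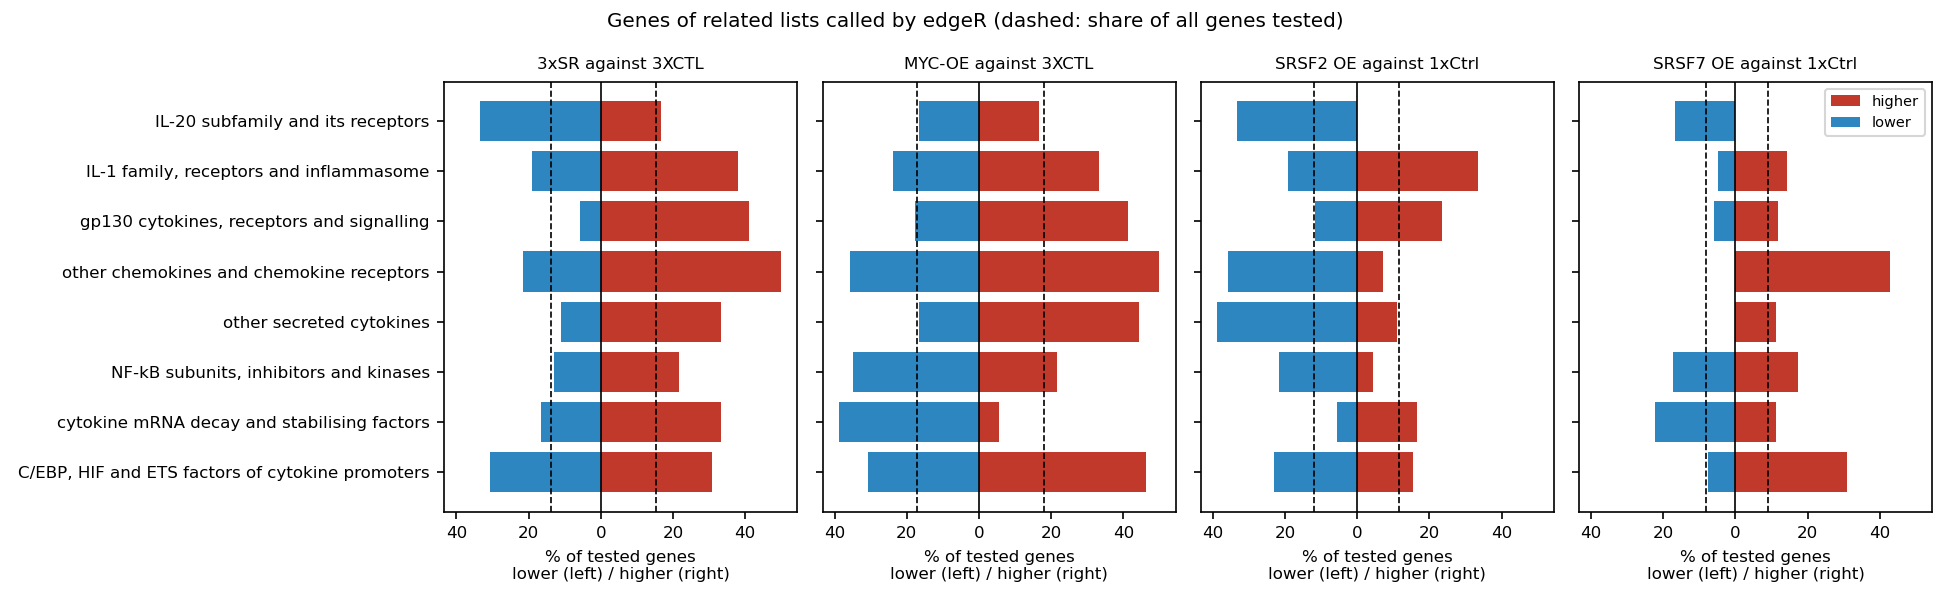
Share of the tested genes of each related list that were called higher (right, red) or lower (left, blue) by edgeR in 4 lines against their controls (horizontal axis, percent); dashed lines mark the share of all genes tested. In SRSF7 OE the bar of other chemokines extends to the right alone (6 higher and 0 lower of 14), while that of other secreted cytokines (2 and 0 of 18, or 11.1%) ends near the 9.03% of all genes, and in MYC-OE the bar of mRNA decay factors extends mainly to the left (1 higher and 7 lower of 18).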

How the data were processed

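The deposited values are whole-number read counts per gene in 2 tables of 60668 Ensembl identifiers each. Per the labels' protocols, stranded polyA libraries were sequenced as paired ends on an Illumina NovaSeq. Trimmomatic 0.39, STAR, StringTie 2.1.3b and the build GRCh38.p13 are listed in the submitters' processing notes without roles. The counting step, its strand setting and the annotation are not given in the sources used here. Symbols came from a gene name table (42005 identifiers matched) and positions from GENCODE 29.

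Each table was fitted over all its groups in edgeR 4.0.16 (R 4.3.3): filterByExpr (minimum count 10, minimum total count 15), TMM scaling, robust quasi-likelihood F test, Benjamini-Hochberg adjustment over all genes tested and a threshold of 0.05. The SE is the absolute log2 fold change divided by the square root of F. The procedure was tested on simulated data. Ratios of counts were compared by exact permutation tests. Floors cover counting error only.

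The members, gene lists and tests were chosen with earlier results of these data known. All members are named in every contrast. From each list the text takes genes among the up to 3 in each direction that changed most in a contrast. These had a call at 0.05, groups that do not overlap and 1 CPM or more on average. Calls of the same genes in other lines are also given, and some of those did not meet these conditions. The 5 genes most like IL24 and IL1B were ranked by Pearson r of log2 CPM (prior count 2). Alternatives were RLE, upper-quartile and total-count scaling, no filter, DESeq2 1.42.0, only the groups compared, the replicate number as a block and leaving out each library. Removal of the GC trend (50 bins of transcript GC content) and the neighbours of IL24 were added after seeing the data.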

Additional observations from a re-analysis of the deposited data

How the results depend on the processing

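The number of members called stayed within 1.5 times its value in all 84 alternative fits of the tested contrasts. Leaving out 1 library at a time gave 8 to 10 members called in 3xSR, 9 in MYC-OE, 6 in MYC-OE against 3xSR, 2 to 3 in SRSF2 OE, 5 in SRSF7 OE and 6 to 7 in SRSF2 OE against SRSF7 OE. Of the fits of single members, 806 kept direction and side of the threshold, 17 lost a call, 5 gained one and 12 changed sign, none of these 12 past the threshold; causes were not tested. The log2 values that changed sign with the GC trend removed, all in MYC-OE against 3xSR, were 0.023 for IL6, -0.0949 for IL11 and 0.042 for CCL20. Others changed sign when 1 library was left out, and LIF in SRSF7 OE did so under the replicate block as well. Over all alternatives, the values ran from -0.177 to 0.119 for IL6 in MYC-OE against 3xSR. In SRSF2 OE they ran from -0.559 to 0.053 for IL6, -0.032 to 0.122 for CXCL1 and -0.37 to 0.0342 for CCL20. In SRSF7 OE they ran from -0.126 to 0.135 for LIF and -0.184 to 0.0806 for CXCL2. The libraries whose omission changed a sign were MYC-OE replicate 2, 1xCtrl replicates 2 and 3, SRSF2 OE replicate 2 and SRSF7 OE replicates 1 and 2. The number of all genes called in SRSF7 OE, 4214, was 7206 with the GC trend removed, 2251 with only the groups compared, 7321 without 1xCtrl replicate 2 and 2685 without SRSF7 OE replicate 3. Counts of the related lists moved by over 1.5 times in 62 of 672 fits.

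Same-numbered replicates did not deviate together (mean r of their deviations, on log2(CPM + 0.5), between -0.347 and 0.0553 over the contrasts, with at most 3 of 6 libraries closest to their own number), so the numbers were not taken as pairs. With the replicate block 9 members were called in 3xSR, 9 in MYC-OE, 2 in SRSF2 OE and 5 in SRSF7 OE. Under the block LIF passed neither in SRSF2 OE (edgeR adjusted p = 0.0627) nor between SRSF2 OE and SRSF7 OE (adjusted p = 0.0595), LIF in SRSF7 OE was 0.002 on the log2 scale, and no other member's call changed. At this depth IL10 gave no count, and IL6, IL19 and IL20 lay near or under 1 CPM in all libraries, as did IL24 in 3XCTL, 1xCtrl and SRSF7 OE.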

Other observations

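Other secreted cytokines were called in both directions. Of 18 tested, 6 were higher and 2 lower in 3xSR, 8 and 3 in MYC-OE, 2 and 7 in SRSF2 OE, and 2 and 0 in SRSF7 OE. The calls are 44.4%, 61.1%, 50% and 11.1% of the list, where 29%, 35.3%, 23.5% and 17.3% of all genes were called. IL23A, a subunit of IL-23, rose in 3xSR from 0.984 to 1.98 CPM (log2 1.01, edgeR adjusted p = 0.00175), in MYC-OE (log2 1.21, adjusted p = 0.000351) and in SRSF2 OE from 1.67 to 4.30 CPM (log2 1.36, adjusted p = 5.34e-05). CSF1, the macrophage growth factor, fell in 3xSR from 22.7 to 13.6 CPM (log2 -0.74, adjusted p = 0.00129), in MYC-OE (log2 -0.45, adjusted p = 0.0166) and in SRSF2 OE (log2 -0.68, adjusted p = 0.00471). TGFB2, a growth factor of the TGF-beta family, fell in SRSF2 OE from 14.4 to 8.42 CPM (log2 -0.77, adjusted p = 3.98e-05), in 3xSR (log2 -0.42, adjusted p = 0.0015) and in MYC-OE (log2 -0.21, adjusted p = 0.049). TGFB1 rose in MYC-OE to 31.1 CPM (log2 0.64, adjusted p = 0.00106). IL15, which sustains natural killer and memory T cells, fell in MYC-OE (log2 -0.52, adjusted p = 0.00312) and SRSF2 OE (log2 -0.50, adjusted p = 0.0059).

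The 2 control groups, which sit in separately scaled tables and were not tested against each other, differed in several of the members. IL24 averaged 0.259 CPM in 3XCTL and 0.85 CPM in 1xCtrl, IL1A 13.7 and 32.4 CPM, IL1B 7.26 and 15.7 CPM, and CCL20 0.462 and 1.20 CPM, while CXCL1 averaged 17.5 and 17.6 CPM and LIF 9.94 and 8.94 CPM. In MYC-OE the means were 1.055 CPM for IL24, 26.9 for IL1A, 16.7 for IL1B, 1.51 for CCL20, 9.84 for CXCL1 and 6.46 for LIF. In 3xSR they were 2.70, 42.8, 15.9, 1.77, 20.8 and 8.61 CPM. For IL1B both lines thus lay near 1xCtrl, the control of the other table. The part of the control level in the changes of the first table was not tested. The within-library ratio of CXCL8 to CXCL1 averaged 0.56 in 3XCTL and 0.898 in 1xCtrl. The level of IL24 in SRSF7 OE, 0.24 CPM, was close to that in 3XCTL.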
